A study of Mus musculus with 20 samples.

Results

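The 83 genes described here encode the proteins of the cytosolic ribosome in the mouse. They were found by symbol and gene type in the deposited table of 54986 genes. Taken were protein-coding genes named Rpl or Rps with a number and at most a short suffix, with Rpsa and Rplp0 to Rplp2 and without the Rps6k kinases. A name such as Rpl36al falls outside this rule. Of the 83 genes 51 are of the large and 32 of the small subunit. Their RNA was measured in NMuMG cells, a line of untransformed mouse mammary epithelium, and in lines made from it. There were 10 conditions with 2 libraries each. Parental NMuMG cells were compared with NMuMG cells treated with TGFβ and with E1KD cells, in which an shRNA silences Pcbp1, the gene of hnRNP E1. M1P cells were recovered from the primary tumor and L1P cells from lung metastases that E1KD cells had formed after injection into the mammary fat pad of NOD/SCID mice, and both were grown in culture again before RNA was taken. Platr18 clones 12 and 16 are 2 single clones of NMuMG cells that overexpress the noncoding RNA Platr18, and NMuMG cells with an empty vector are their control. E1KD SCR cells carry the hnRNP E1 shRNA and a scrambled shRNA, and E1KD Platr18 KD cells carry the hnRNP E1 shRNA and one against Platr18. The labels do not say whether the 2 libraries of a condition came from separate cultures, so the p-values measure only the spread between libraries, which may be technical.

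A ribosome holds 1 copy of most of its proteins, and cells make these proteins in matched amounts. The mRNAs of most ribosomal proteins begin with a run of pyrimidines, the 5′ terminal oligopyrimidine (TOP) motif, through which mTORC1 and LARP1 control their translation. Transcription of the genes rises in growing cells, in which Myc also drives the ribosome assembly factors and RNA polymerase I. Each gene has many processed pseudogenes, because the mRNAs are abundant and often retrotransposed.

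The windows around the annotated start sites of 7 members on which the results turn hold unequal runs of C and T. Each window has 15 bases before and 15 from the annotated start, 5′ to 3′ on the transcribed strand, from RefSeq on GRCm38.p6, with the longest run of C and T in capitals. Rpl14 at chr9:120571502-120571531 (plus strand) stands for the members that were lower with TGFβ. Rpl15 at chr14:18270972-18271001 (minus), Rps24 at chr14:24490663-24490692 (plus), Rpl22 at chr4:152324421-152324450 (plus) and its paralog Rpl22l1 at chr3:28805493-28805522 (plus) moved with hnRNP E1 silencing. Rps12 at chr10:23787195-23787224 (minus) and Rpl7l1 at chr17:46782642-46782671 (minus), a paralog of Rpl7, differed between the Platr18 clones.
Rpl14: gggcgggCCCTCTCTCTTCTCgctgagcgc
Rpl15: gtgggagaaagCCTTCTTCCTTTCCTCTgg
Rps24: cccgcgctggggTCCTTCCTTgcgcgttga
Rpl22: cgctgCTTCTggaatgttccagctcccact
Rpl22l1: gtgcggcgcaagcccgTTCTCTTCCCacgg
Rps12: taccgtcatgcggccaccgccggCCTTTTC
Rpl7l1: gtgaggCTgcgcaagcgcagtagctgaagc
A run of at least 7 C or T, searched on the transcribed strand alone, was in the windows of 34 of the 63 members with a sequence (54.0%) and in 21.3% of all 27025 genes with one. Rpl22 and Rpl7l1 had no such run in these windows. A run is a description of these letters and does not show where transcription starts.

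The authors deposited CPM, the reads of a gene scaled to the depth of its library. Over all genes these values summed to 547497 to 797257 CPM, so the sums differed between libraries. Fold changes below are log2 differences of CPM + 1, fitted with limma over the 20 libraries. A gene was called when its Benjamini-Hochberg adjusted p, over the 17106 genes that reached 1 CPM in 2 or more libraries, was under 0.05, and "limma adjusted p" means this value. The scale understates the change of genes with low CPM, and bulk RNA cannot tell a change in all cells from one in some of them. Of the 83 members 80 were tested. Rpl3l, Rpl10l and Rpl39l, paralogs known from muscle and testis, were close to 0 in all libraries and were not tested.

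The depth, recovered from the steps of low CPM values and rounded, was 50800000 to 60000000 reads in NMuMG, TGFβ, E1KD, M1P and L1P and 63000000 to 147300000 reads in the other conditions. In the first of these sets Pcbp1 stood at 287 and 312 CPM in NMuMG and at 14.2 to 30.5 CPM in E1KD, M1P and L1P, and in the second at 32.3 CPM in both Empty vector libraries and at most 3.46 CPM in E1KD SCR and E1KD Platr18 KD. It was thus lower in the silenced lines of each set, while the Empty vector libraries lay far below NMuMG. Platr18 (listed as Lncenc1) had at least 3092 CPM in clone 12, at least 813 CPM in clone 16, 2.92 and 3.10 CPM in E1KD SCR and at most 0.17 CPM in E1KD Platr18 KD. E1KD SCR was thus not above the Empty vector, with 3.69 and 3.06 CPM. In the first set Platr18 had 1.24 and 1.45 CPM in NMuMG and 17.9 and 14.6 CPM in E1KD. The 7 mesenchymal markers summed to 535 and 556 CPM in NMuMG and to 1831 and 1349 CPM in E1KD. Their sums differed less in the second set, with 656 and 695 CPM in the Empty vector and 768 and 832 CPM in E1KD SCR. Of the epithelial markers Epcam, Cldn3 and Esrp1 were under 1 CPM in every library, while the 7 markers summed to 1336 to 4007 CPM. Markers of blood cells summed to at most 4.90 CPM, of endothelium to at most 0.54 CPM and of adipocytes to at most 0.10 CPM. The 4 lung epithelial markers summed to 7.03 to 47.3 CPM, all but a trace of it from Foxj1, with the surfactant genes near 0 in L1P too.

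The libraries were of 2 kinds that the labels do not name, and the members' levels differed widely between them. In NMuMG, TGFβ, M1P and L1P the 83 members summed to 3808 to 6498 CPM, and in the 10 libraries of the Empty vector, the clones, E1KD SCR and E1KD Platr18 KD to 16010 to 20329 CPM. Summed with their 986 copies elsewhere in the table, of which 960 are annotated as pseudogenes, the same members came to 35564 to 54316 CPM and to 43489 to 54227 CPM. The members' own rows thus held 10.7% to 12.4% of the reads of a gene and its copies in the first kind of library, E1KD replicate 1 aside, and 36.6% to 37.6% in the second. Summed CPM over all genes differed as well, at 547497 to 581389 in NMuMG, TGFβ, M1P and L1P and 742097 to 797257 in the second kind. Members with copies made up 6.44% to 9.58% of these sums in the former and 5.49% to 6.90% in the latter. In 72 of 80 members every library of the second kind lay above every library of the first kind other than E1KD replicate 1. The median log2 difference between the kinds was 2.18 over the 80 members. The difference was larger for genes with short coding segments, with a median of 2.94 in the 40 members whose longest segment was shortest and 1.75 in the other 40 (Spearman's rho -0.67 across 80 genes of the same libraries, given as a description). Rpl38, a small protein of the large subunit, shows the extreme, with at most 0.26 CPM in the first kind and 65.5 to 85.8 CPM in the second. Kind and condition cannot be told apart here, so conditions are compared only within a kind.

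E1KD replicate 1 stood apart from its kind. All 80 tested members were higher in it than in replicate 2, with a median log2 ratio of 1.08, whereas the other 9 pairs of libraries had medians of -0.21 to 0.02. The shift was not confined to the members, as CPM over all genes summed to 728651 in replicate 1 and 567414 in replicate 2. With copies included the members' median log2 ratio was 0.37. Members and copies together made up 9.23% of the summed CPM of all genes in replicate 1 and 9.26% in replicate 2. The members summed to 12658 CPM in replicate 1 and 6530 CPM in replicate 2, and their share of the reads of members and copies was 18.8% in replicate 1. In 66 of 80 members replicate 1 lay between replicate 2 and the mean of E1KD SCR. All 80 exceeded replicate 2 and most were higher in the second kind, so this count says little by itself. Spearman's rho between a member's ratio of replicate 1 to replicate 2 and its difference between the kinds was 0.22, given as a description. The counts of members called are therefore given with all 20 libraries and without E1KD replicate 1, which leaves 1 E1KD library that is assumed to vary like the others. That library also raises the estimate of the spread in comparisons that do not hold E1KD, so its absence changes their calls and not their fold changes.

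**Figure D1:**
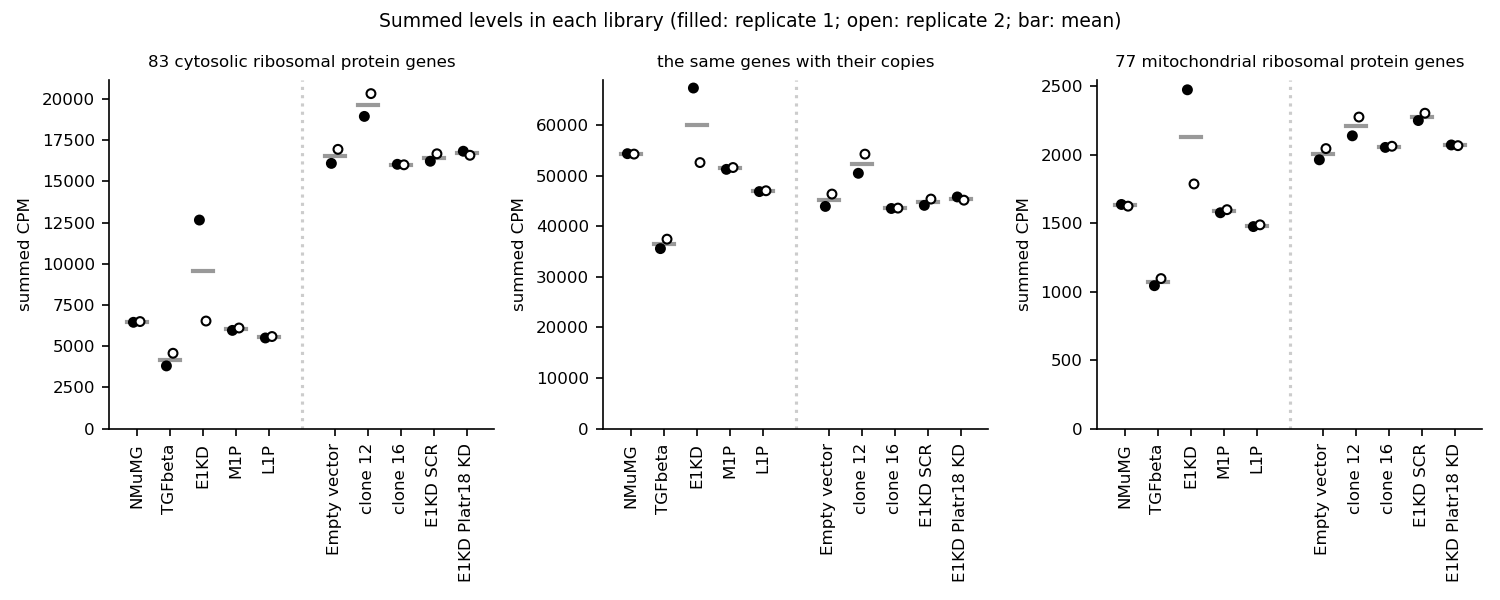
Summed CPM of the 83 members (left), of the members with their copies (middle) and of 77 mitochondrial ribosomal protein genes (right) in each library, with 1 point for a library, a bar for the mean of 2 and a dotted line between the 2 kinds of library. The TGFβ libraries are the lowest in all 3 panels, and E1KD replicate 1 lies above replicate 2 in all 3.

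After TGFβ treatment nearly all members were lower. They summed to 6453 and 6498 CPM in NMuMG and to 3808 and 4575 CPM with TGFβ, and with their copies to 54316 and 54233 CPM and to 35564 and 37431 CPM. The groups did not overlap in either sum. The median log2 fold change of the 80 members was -0.53, against -0.08 over all genes tested. With all 20 libraries 28 members were called lower and 0 higher, against 33.6% and 21.8% of all genes, and 41 had an unadjusted p under 0.05. This count fell to 10 without TGFβ replicate 1 and to 9 when only libraries of the first kind were fitted. The shares of all genes called in those fits are not given here. Without E1KD replicate 1, 71 were called lower and 0 higher, against 43.0% and 25.9% of all genes. With copies included and that library left out, 78 were called lower and 0 higher, against 43.0% and 27.2%. When the table was rescaled by medians of ratios, which moved the median of all genes to 0.00, 34 members were called lower and 2 higher, with a median of -0.36. The share of all genes called after this rescaling is not given here either. Both TGFβ libraries lay below both NMuMG libraries in 73 members and above them in 1, against 49.5% and 30.6% of all genes.

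Rps14, a small-subunit protein whose loss causes the anemia of the 5q- syndrome, had the largest decrease. It had 33.6 and 34.1 CPM in NMuMG and 14.1 and 19.1 CPM with TGFβ, a log2 fold change of -1.0 (SE 0.31, limma adjusted p = 0.0135). Rpl8, which lies near the peptidyl transferase center, had 332 and 340 CPM in NMuMG and 148 and 199 CPM with TGFβ (-0.96, SE 0.22, limma adjusted p = 0.0017). In both genes the treated libraries were the lower ones, and they differed from each other by more than the NMuMG libraries did. The decrease of Rpl14, a large-subunit protein, was more even, from 237 and 229 CPM to 119 and 137 CPM (-0.86, SE 0.09, limma adjusted p = 2.2e-06). Rpl41, the smallest protein of the ribosome, had 669 and 668 CPM in NMuMG and 351 and 399 CPM with TGFβ (-0.83, SE 0.11, limma adjusted p = 1.7e-05). Rps26, which contacts mRNA at the exit channel, completed the 5 largest decreases with 62.6 and 60.4 CPM in NMuMG and 26.5 and 38.0 CPM with TGFβ (-0.93, SE 0.25, limma adjusted p = 0.0054). None of these 5 members had overlapping groups.

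The stalk of the large subunit recruits the GTPases of translation. Its anchor Rplp0 had 698 and 701 CPM in NMuMG and 397 and 484 CPM with TGFβ (-0.67, SE 0.19, limma adjusted p = 0.0088), and Rplp1 418 and 412 CPM and then 226 and 314 CPM (-0.64, SE 0.25, limma adjusted p = 0.0424). Rplp2 was at 4.76 and 5.19 CPM and at 2.77 and 3.38 CPM, a change of -0.55 that was called only without E1KD replicate 1 (limma adjusted p = 0.12 with it and 0.0012 without). Rpl5 and Rpl11, which bind 5S RNA and, outside the ribosome, Mdm2, differed by -0.46 and -0.69 and were likewise called only without that library (limma adjusted p = 0.13 and 0.0529 with it). Rps6, the substrate of the S6 kinases, had 111 and 114 CPM in NMuMG and 59.6 and 75.5 CPM with TGFβ (-0.74, SE 0.19, limma adjusted p = 0.0037).

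Few members stood outside the decrease. Rpl28 had 10.7 and 11.4 CPM in NMuMG and 10.95 and 14.7 CPM with TGFβ, a log2 difference of 0.18 that was not called (limma adjusted p = 0.35). Rpl23 had 29.7 and 28.1 CPM in NMuMG and 29.6 and 30.5 CPM with TGFβ, so its groups overlapped. Rps27l, a p53-induced paralog of Rps27, was the 1 member whose treated libraries both lay above, at 0.33 and 0.38 CPM over 0.23 and 0.28 CPM, though its difference was not called (limma adjusted p = 0.83). With its copies it was called lower (-0.69, limma adjusted p = 0.0042). Rpl22 was also close to its control, with 60.5 and 61.2 CPM and 56.1 and 59.0 CPM (-0.08, limma adjusted p = 0.66). With copies included and without E1KD replicate 1, however, Rpl23 changed by -0.43 and Rpl22 by -0.61 and both were called lower, so their difference from the other members depended on which rows were counted. Rpl28 with its copies differed by -0.09 (limma adjusted p = 0.14). The median change was -0.47 in the 33 tested members with a pyrimidine run in the window around the annotated start and -0.51 in the 27 without one.

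Genes outside the cytosolic ribosome were lower with TGFβ too. Over all genes 33.6% were called lower and 21.8% higher with all 20 libraries. Of 77 mitochondrial ribosomal protein genes 61 were called lower and 0 higher, or 72 and 0 without E1KD replicate 1, with a median of -0.53, and they summed to 1637 and 1624 CPM in NMuMG and to 1044 and 1096 CPM with TGFβ. Of 46 ribosome biogenesis genes 25 were called lower and 0 higher, or 41 and 0 without that library, among them Rrp1b with -0.96 and Gar1, a box H/ACA snoRNP protein, with -0.94. Of 15 genes for RNA polymerase I and its factors 7 were called lower, with Ubtf at -0.93, and 1 higher, or 11 and 1 without that library. Of ribosomal protein genes that the symbol rule does not cover, Rpl36al changed by -0.89 and was called, while Fau (-0.30) was not. Myc was at 52.8 and 53.8 CPM in NMuMG and 51.8 and 52.96 CPM with TGFβ, a difference of -0.02 (limma adjusted p = 0.88).

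**Figure D2:**
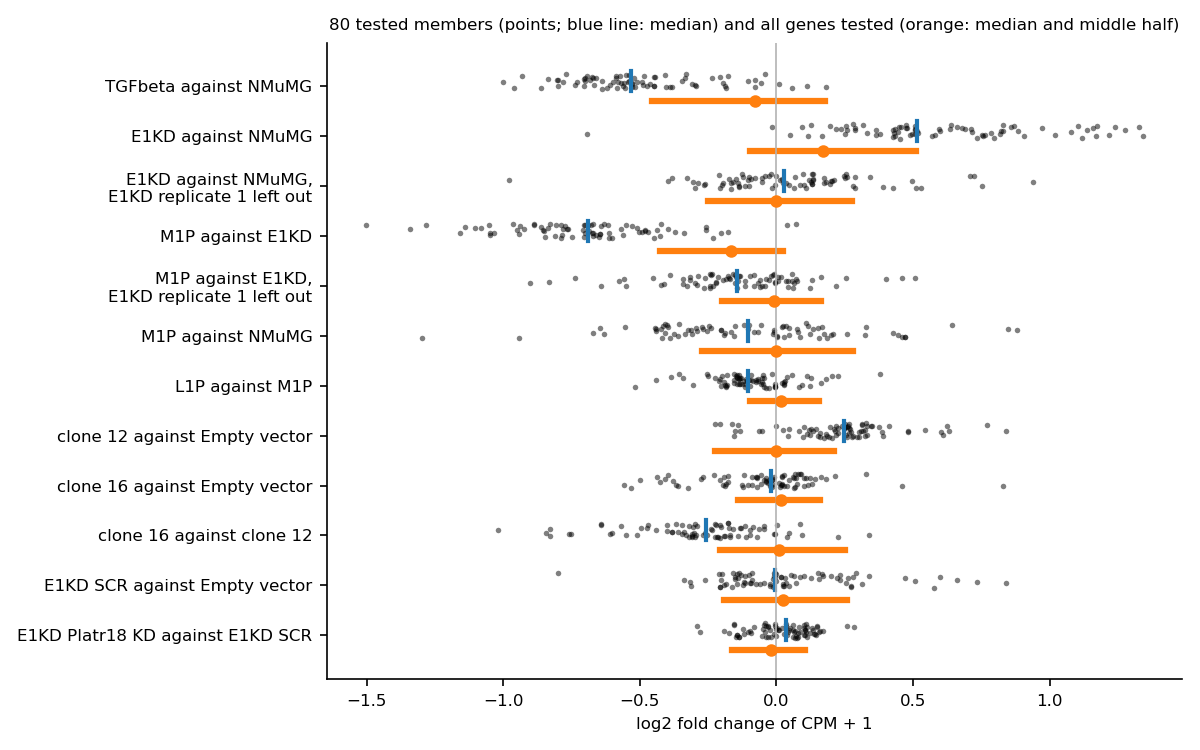
Log2 fold change of CPM + 1 of each of the 80 tested members (black points) with their median (blue line), and the median and interquartile range of all genes tested (orange) in 12 rows of comparisons. With TGFβ the members' median is -0.53 against -0.08 for all genes, and their median in E1KD is 0.52 with both libraries and 0.03 without E1KD replicate 1.

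The comparison of E1KD with NMuMG asks what hnRNP E1 silencing changes, and for the members as a group 1 library set the value. With both E1KD libraries 44 members were called higher and 1 lower, against 39.6% and 17.1% of all genes, with a median log2 fold change of 0.52 against 0.17 over all genes. Rescaling by medians of ratios moved the latter to 0.02 and the members' median to 0.31. Without E1KD replicate 1, 19 were called higher and 12 lower, against 29.9% and 27.7%, with a median of 0.03. With copies included and without that library 11 were called higher and 28 lower, against 31.1% and 28.7%. The largest increases with both libraries show the same dependence. Rpl36 was at 0.23 CPM in both NMuMG libraries and at 6.38 and 0.31 CPM in E1KD, so that its change of 1.34 became 0.10. Rpl7a, with 22.8 and 21.9 CPM in NMuMG and 119 and 27.5 CPM in E1KD, went from 1.33 to 0.29. Rpl26 went from 1.27 to 0.28 and Rpl23a from 1.24 to 0.13. At the other end, Rps27 (-0.02) and Rpl41 (0.05) were not called with both libraries. Rpl27, with 22.3 and 23.1 CPM in NMuMG and 75.1 and 38.9 CPM in E1KD, went from 1.22 to 0.75 and was still called (limma adjusted p = 1.3e-07 without that library).

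In the second kind of library, where E1KD SCR was compared with the Empty vector, the members as a group did not separate from their controls. E1KD SCR cells differ from Empty vector cells also in the scrambled shRNA and in the vector they carry. Differences between these lines, here and below, therefore cannot be assigned to hnRNP E1 silencing alone. They summed to 16225 and 16678 CPM in E1KD SCR and to 16095 and 16947 CPM in the Empty vector, and the groups overlapped. Their median log2 fold change was -0.01, against 0.02 over all genes. Called higher were 6 members and lower 1, against 23% and 19.6% of all genes, and without E1KD replicate 1 17 and 13, against 33.1% and 26.8%. The 6 were Rpl15, Rpl7l1, Rps24, Rpl22l1, Rps20 and Rps12, and the 1 was Rpl22. The difference between the 2 silencing comparisons was called higher in the first kind in 4 members and lower in 0, against 15.4% and 5.86% of all genes, and without E1KD replicate 1 in 6 and 1, against 14.3% and 15.3%.

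Rpl22, an RNA-binding protein of the large subunit, had the largest decrease of the members both in E1KD against NMuMG and in E1KD SCR against the Empty vector. Its CPM was 60.5 and 61.2 in NMuMG and 45.6 and 30.4 in E1KD, and 150 and 168 in the Empty vector and 89.7 and 91.8 in E1KD SCR. The silenced libraries lay below their controls in both comparisons. The log2 fold changes were -0.69 in E1KD (SE 0.13, limma adjusted p = 0.00033) and -0.80 in E1KD SCR (SE 0.13, limma adjusted p = 0.00014). Without E1KD replicate 1 they were -0.98 and -0.80, and with copies included as well -1.03 and -0.79. The recovered lines, which share the NMuMG libraries as controls with E1KD, had 23.2 and 25.2 CPM in M1P (-1.30, SE 0.13, limma adjusted p = 7.9e-07) and 28.2 and 26.9 CPM in L1P (-1.11, SE 0.13, limma adjusted p = 3.4e-06). E1KD Platr18 KD, at 93.5 and 95.7 CPM, differed from E1KD SCR by 0.06 (limma adjusted p = 0.84).

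Rpl22l1 encodes a paralog that can take the place of Rpl22 in the ribosome, and it was higher where Rpl22 was lower. Its CPM was 15.9 and 17.05 in NMuMG and 37.2 and 24.2 in E1KD (0.83, SE 0.15, limma adjusted p = 0.00024), or 0.53 without E1KD replicate 1. In the second kind it had 78.0 and 76.3 CPM in the Empty vector and 123 and 113 CPM in E1KD SCR (0.60, SE 0.15, limma adjusted p = 0.0040). In M1P it had 23.9 and 22.2 CPM (0.46, limma adjusted p = 0.0169). In L1P it had 19.96 and 21.8 CPM, a change of 0.32 called only without E1KD replicate 1 (limma adjusted p = 0.0792 with it). The ratio of Rpl22l1 to Rpl22, which is compared between libraries of a kind, was 0.26 and 0.28 in NMuMG, 0.82 and 0.80 in E1KD, 1.03 and 0.88 in M1P and 0.71 and 0.81 in L1P. In the second kind it was 0.52 and 0.45 in the Empty vector, 1.37 and 1.23 in E1KD SCR and 1.23 and 1.19 in E1KD Platr18 KD. The clones had 0.33 to 0.42 and TGFβ 0.25 and 0.30. Every silenced library, E1KD replicate 1 included, thus had a higher ratio than every unsilenced library of its kind. With copies included, though, it was 0.55 and 0.53 in NMuMG and 0.87 and 0.91 with TGFβ, below the 1.64 and 1.84 of E1KD.

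**Figure D3:**
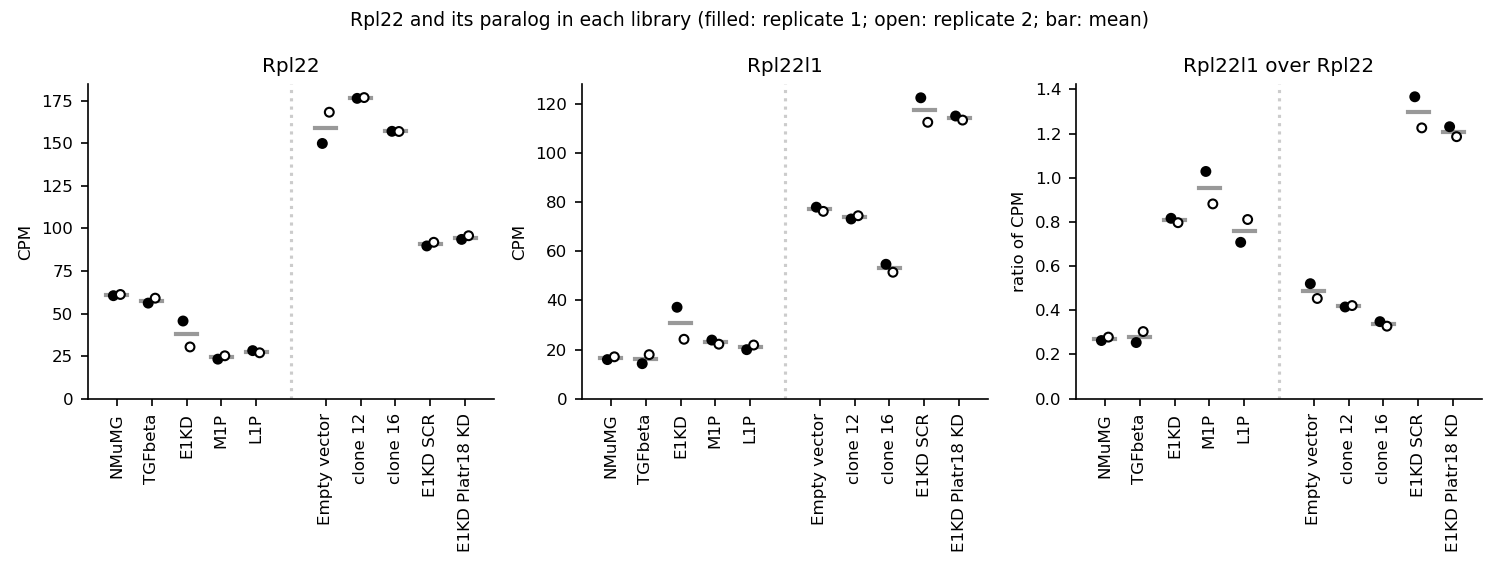
CPM of Rpl22 (left), of its paralog Rpl22l1 (middle) and their ratio (right) in each library, with a bar for the mean of 2 libraries and a dotted line between the kinds. In both kinds the silenced libraries have less Rpl22 than their controls and a higher ratio, 0.71 to 1.03 against 0.25 to 0.30 in the first kind and 1.19 to 1.37 against 0.33 to 0.52 in the second.

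Rpl15 and Rps24 were higher in the silenced lines of both kinds. The CPM of Rpl15, a large-subunit protein needed for rRNA processing, was 57.4 and 55.3 in NMuMG, 143 and 109 in E1KD, 106 and 103 in M1P, and 116 and 119 in L1P. In the second kind it had 85.4 and 90.8 CPM in the Empty vector and 157 and 160 CPM in E1KD SCR. None of the silenced libraries overlapped with its controls. The log2 fold changes were 1.14 in E1KD (0.94 without replicate 1), 0.88 in M1P, 1.04 in L1P and 0.84 in E1KD SCR (SE 0.09 each, largest limma adjusted p = 4.2e-06). The CPM of Rps24, a small-subunit protein needed for 18S rRNA maturation, was 78.5 and 77.7 in NMuMG, 220 and 130 in E1KD, 138 and 145 in M1P, and 137 in both L1P libraries. It had 198 and 208 CPM in the Empty vector and 338 and 305 CPM in E1KD SCR. Its fold changes were 1.11 (0.72 without replicate 1), 0.85, 0.80 and 0.66 (SE 0.16 each, largest limma adjusted p = 0.0038). With copies included and without E1KD replicate 1, the change in E1KD was 0.70 for Rpl15 and 0.68 for Rps24. Both genes were also called higher in Platr18 clone 12, and Rpl15 in clone 16.

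Rpl7l1 and Rps20 were called higher in E1KD and in E1KD SCR. Rpl7l1, which acts in the assembly of the large subunit, was at 59.4 and 56.3 CPM in NMuMG and rose to 111 and 82.8 CPM in E1KD (0.72, SE 0.10, limma adjusted p = 2.4e-05, and 0.51 without replicate 1). In the second kind it had 76.2 and 82.3 CPM in the Empty vector and 131 and 134 CPM in E1KD SCR (0.73, SE 0.10, limma adjusted p = 2.7e-05). In M1P it was at 64.1 and 65.9 CPM, a difference of 0.17 (limma adjusted p = 0.18, or 0.0039 without E1KD replicate 1), and in L1P at 61.0 and 59.2 CPM, a difference of 0.06 that was not called either way. Rps20, a protein of the small subunit's head, was at 65.9 and 64.8 CPM in NMuMG and rose to 156 and 92.5 CPM in E1KD (0.87, or 0.50 without replicate 1). It had 252 and 239 CPM in the Empty vector and 372 and 359 CPM in E1KD SCR (0.58, SE 0.16, limma adjusted p = 0.0094). In M1P it was at 73.2 and 77 CPM (0.20, limma adjusted p = 0.35, or 0.0093 without E1KD replicate 1) and in L1P at 74.3 and 77.9 CPM (0.22, limma adjusted p = 0.30, or 0.0051). The groups of both genes did not overlap in E1KD and in E1KD SCR. Rps27l, the third paralog tested, had 0.23 and 0.28 CPM in NMuMG and 3.68 and 0.59 CPM in E1KD (1.12, or 0.34 without replicate 1), and 74.0 and 70.2 CPM in the Empty vector and 92.3 and 84.5 CPM in E1KD SCR (0.29, limma adjusted p = 0.51, or 0.0067 without E1KD replicate 1). Of the parents of the paralogs Rpl3 (0.60) was called higher and Rpl22 lower in E1KD with both libraries, and without replicate 1 the value of Rpl3 was 0.022 and that of Rpl7 -0.19. In E1KD SCR Rpl22 was the 1 parent called with all 20 libraries, and without E1KD replicate 1 Rps27 (-0.18, limma adjusted p = 0.0038) and Rpl39 (-0.21, limma adjusted p = 0.0374) were called lower too.

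**Figure D4:**
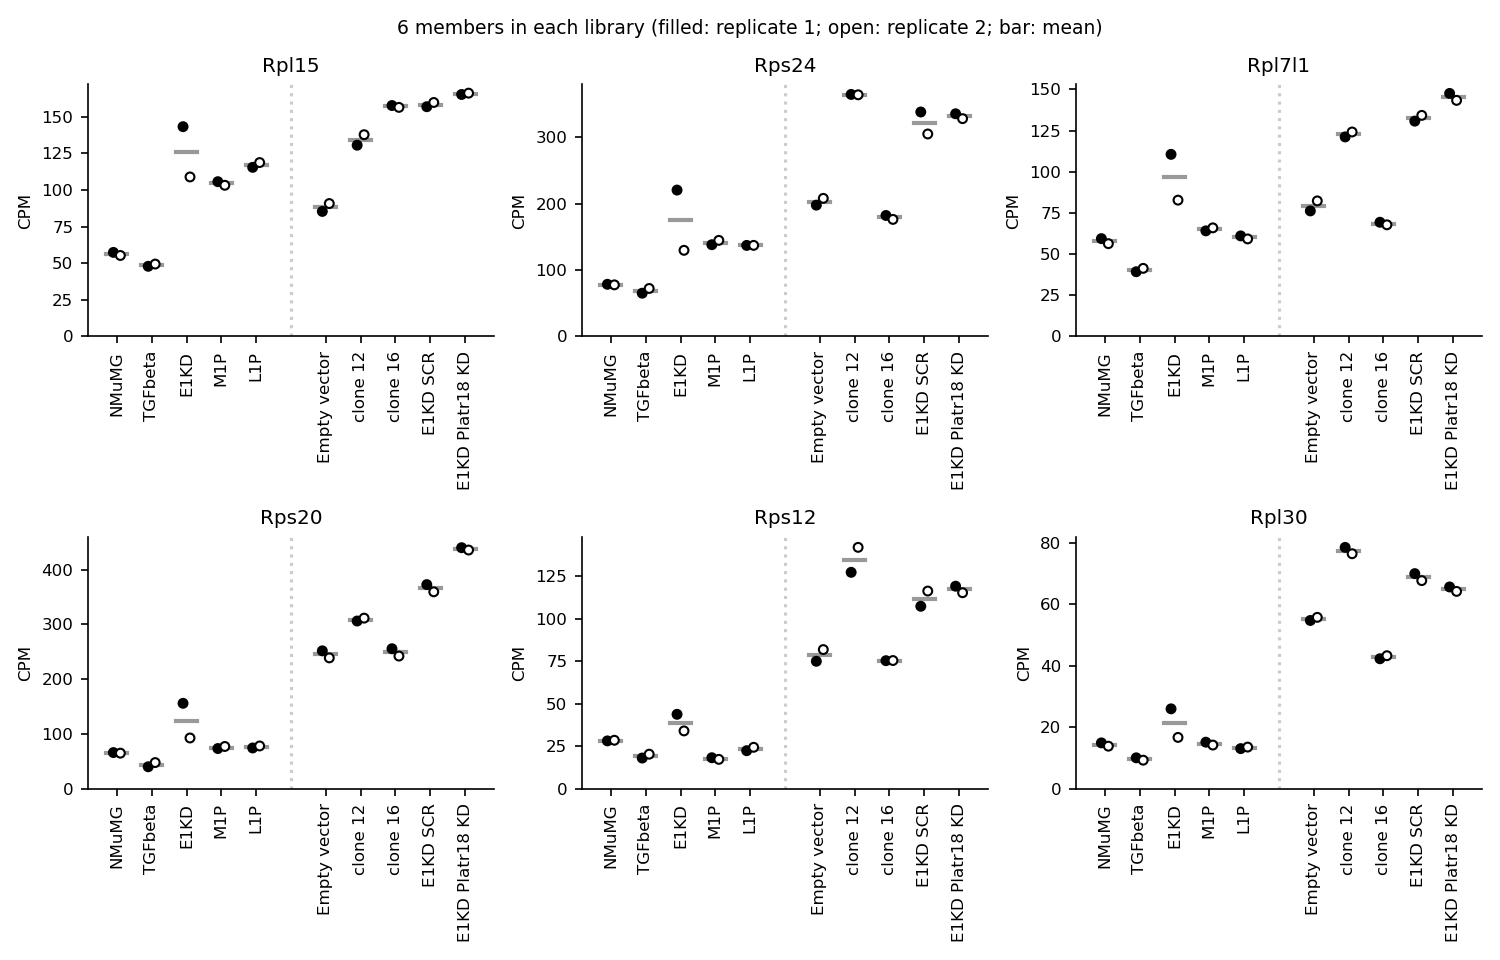
CPM of 6 members in each library, with a bar for the mean of 2 libraries and a dotted line between the 2 kinds. Rpl15 is higher than its control in all silenced lines and in both clones, and Rps24, Rpl7l1, Rps12 and Rpl30 are higher in clone 12 than in clone 16 without overlap.

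In the cells recovered from tumors and metastases the members lay slightly below NMuMG. Their sums were 5963 and 6108 CPM for M1P and 5503 and 5591 CPM for L1P, below the 6453 and 6498 CPM of NMuMG. Against NMuMG, 4 members were called higher and 11 lower in M1P, against 25.3% and 23.8% of all genes, with a median of -0.10, and 3 and 12 in L1P, against 27.7% and 22.4%, with a median of -0.21. Leaving out E1KD replicate 1, the numbers were 15 and 35 in M1P, against 32.3% and 32.4%, and 10 and 44 in L1P, against 34.7% and 30.4%. With copies included and that library left out, 23 were called higher and 41 lower in M1P, against 33.5% and 33.2%. The 4 called higher in M1P were Rpl15, Rps24, Rpl22l1 and Rps6, the last with 177 and 175 CPM against 111 and 114 CPM (0.64, SE 0.19, limma adjusted p = 0.0104). Rps27, a zinc finger protein of the small subunit, had the largest decrease after Rpl22, with 1.54 and 1.51 CPM in M1P against 3.81 and 3.88 CPM in NMuMG (-0.94, SE 0.12, limma adjusted p = 1.6e-05). Rps27 changed by -0.49 with copies included and was still called. Rpl31, Rps12 and Rpl21 changed by -0.67, -0.65 and -0.63. In L1P the 3 called higher were Rpl15, Rps24 and Rps6 (0.51), and the largest decreases after Rpl22 were in Rps27 (-1.06) and Rpl23 (-0.61).

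The comparison of M1P with E1KD, the step from the injected cells to the tumor, rested on E1KD replicate 1. With it, 54 members were called lower and 0 higher, against 37.0% and 12.1% of all genes, with a median of -0.69 and large decreases in Rpl36 (-1.34) and Rpl7a (-1.28). Without it, 29 were called lower and 5 higher, against 23.1% and 21.2%, with a median of -0.14, and the values of these 2 members were -0.10 and -0.24. Rps6 and Rps3, both of the small subunit, were at the other end with 0.07 and 0.04. Rps12 was lower either way, with 43.8 and 34.0 CPM in E1KD and 18.2 and 17.3 CPM in M1P (-1.08, SE 0.10, limma adjusted p = 1.7e-06, and -0.90 without that library).

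Between metastasis and tumor few members were called with all 20 libraries, though most lay slightly lower in L1P. In L1P against M1P 1 member was called higher and 1 lower, against 11.2% and 7.30% of all genes, and 2 had an unadjusted p under 0.05. Rps12 had 18.2 and 17.3 CPM in M1P and rose to 22.4 and 24.4 CPM in L1P (0.38, SE 0.10, limma adjusted p = 0.0186), but with its copies and without E1KD replicate 1 it was not called (0.09, limma adjusted p = 0.25). Rps21, also of the small subunit, had 1.05 and 1.36 CPM in M1P against 0.71 and 0.66 CPM in L1P (-0.39, SE 0.12, limma adjusted p = 0.0428). Rpl26 (-0.52), Rpl31 (0.22) and Rpl28 (0.20) were not called with all 20 libraries, and Rpl26 and Rpl31 were without E1KD replicate 1 (limma adjusted p = 0.0015 and 0.0042). The uncalled differences were mostly toward lower values in L1P. Both L1P libraries lay below both M1P libraries in 53 members and above them in 11, against 30.5% and 40.1% of all genes, and the median was -0.11 against 0.02 over all genes. With E1KD replicate 1 left out, 4 members were called higher and 15 lower, against 22.3% and 15.5%, and with copies included 0 and 38, against 23.6% and 15.9%. Rps14 was among the 15, with 39.1 and 39.3 CPM in M1P against 28.1 and 29.3 CPM in L1P (-0.44, limma adjusted p = 0.00068 without E1KD replicate 1 and 0.42 with it).

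The 2 Platr18 clones, which share the Empty vector as control, had few members called in their mean. Against the Empty vector 3 members were called higher in the mean of both clones (Rpl15, Rps12 and Rpl38) and 1 lower (Rpl21), against 13.2% and 15.6% of all genes, or 25 and 8 without E1KD replicate 1, against 24.4% and 24.8%. Clone 12 by itself had 10 members called higher and 0 lower, against 18.1% and 21.5% of all genes, with a median of 0.25, and without E1KD replicate 1 it had 50 and 3, against 28.6% and 29.9%. Rps24 (0.84), Rps12 (0.77), Rpl8 (0.63), Rpl7l1 (0.62) and Rps15 (0.61) had its largest increases. Both its libraries lay above both Empty vector libraries in 65 members and below in 8, against 37.2% and 38.2% of all genes. Clone 16 had 2 called higher and 5 lower, against 11.3% and 11.9%, with a median of -0.02, and without that library 3 and 16, against 22.7% and 21.3%. Its 5 lower members were Rpl22l1 (-0.53), Rpl21 (-0.50), Rps18 (-0.42), Rps27 (-0.41) and Rpl34 (-0.32). Rpl15 was called in both, with 85.4 and 90.8 CPM in the Empty vector, 131 and 138 CPM in clone 12 (0.60) and 158 and 156 CPM in clone 16 (0.83, SE 0.09 each, larger limma adjusted p = 0.00013).

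Tested against each other, clone 16 was below clone 12, the clone with the higher Platr18 level, and each of these conditions is 1 clone. The members summed to 18946 and 20329 CPM in clone 12 and to 16040 and 16010 CPM in clone 16. In clone 16 14 members were called lower and 0 higher, against 18.9% and 23.7% of all genes, with a median of -0.26 against 0.01 over all genes. Both libraries of clone 16 lay below both of clone 12 in 64 members and above in 5, against 36.6% and 40.3%. With that E1KD library left out, 54 were called lower and 2 higher, against 28% and 32.0%, and with copies included 56 and 4, against 26.7% and 33.3%. Rps24 had 364 CPM in both libraries of clone 12 and 182 and 176 CPM in clone 16 (-1.02, SE 0.16, limma adjusted p = 0.00013). Rpl7l1 had 121 and 124 CPM and 69.3 and 67.8 CPM (-0.83, SE 0.10, limma adjusted p = 1.0e-05), Rps12 127 and 142 CPM and 75.4 and 75.5 CPM (-0.83, SE 0.10, limma adjusted p = 1.7e-05). Rpl30, a large-subunit protein, had 78.5 and 76.5 CPM and 42.3 and 43.3 CPM (-0.84, SE 0.13, limma adjusted p = 0.00014). In these 4 genes the Empty vector lay between the clones or at the level of clone 16. Clone 12 was thus above both. Rpl22l1 was lower in clone 16 than in the Empty vector, with 54.7 and 51.5 CPM against 78.0 and 76.3 CPM (-0.53, limma adjusted p = 0.0164). Rpl36a went the other way, with 78.9 and 79.4 CPM in clone 12 and 101 and 99.2 CPM in clone 16 (0.34, limma adjusted p = 0.10, or 0.00036 without E1KD replicate 1).

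The genes of ribosome assembly also differed between the clones. Over all genes 18.9% were called lower and 23.7% higher in clone 16 than in clone 12 with all 20 libraries. Of 46 ribosome biogenesis genes 35 were called lower in clone 16 than in clone 12 and 0 higher, or 44 and 0 without E1KD replicate 1, with a median of -0.52. Gnl3 (nucleostemin) had 122 and 120 CPM in clone 12, 52.6 and 51.8 CPM in clone 16 and 55.6 and 56.8 CPM in the Empty vector, so clone 12 was the high one. Taf1d, a factor of RNA polymerase I, was at 877 and 876 CPM in clone 12 and at 296 and 289 CPM in clone 16. Myc had 53.6 and 56.0 CPM in clone 12, 25.6 and 27.4 CPM in clone 16 and 30.2 and 28.5 CPM in the Empty vector (clone 16 against clone 12 -1.02, SE 0.08, limma adjusted p = 1.7e-07). Mga, a repressor that shares Max with Myc, was at most 0.061 CPM in clone 12 against 41.3 and 40.4 CPM in clone 16 and 24.4 and 25.9 CPM in the Empty vector. Of 19 other TOP mRNAs 10 were lower and 0 higher in clone 16, or 14 and 1 without E1KD replicate 1, with Pabpc1 at -1.03 and Eif3h at -0.85.

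Silencing of Platr18 in E1KD cells called no member. In E1KD Platr18 KD against E1KD SCR 0 members were called higher and 0 lower with limma, against 8.45% and 11% of all genes, and 0 had an unadjusted p under 0.05. The members summed to 16832 and 16587 CPM and to 16225 and 16678 CPM, and the groups overlapped. The median log2 fold change was 0.04 and the members ranged from -0.29 to 0.28. When E1KD replicate 1 was left out, 4 were called higher and 6 lower, against 16.4% and 22.9%. Rps20 was the highest of these, with 372 and 359 CPM in E1KD SCR and 440 and 436 CPM with Platr18 silenced (0.26, SE 0.06, limma adjusted p = 0.0031 without that library). Rpl27 was lower, with 71.2 and 79.8 CPM and then 62.4 and 61.6 CPM (-0.28, SE 0.06, limma adjusted p = 0.0013 without that library).

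In E1KD SCR against the Empty vector, in which 6 members were called higher, 24 of 46 ribosome biogenesis genes were called higher and 0 lower, or 37 and 1 without E1KD replicate 1, with a median of 0.44, among them Gnl3 (1.09) and Nhp2 (0.87). In E1KD against NMuMG 44 were called higher and 0 lower, and 37 and 1 without E1KD replicate 1, with medians of 0.86 and 0.48. With Platr18 silenced 14 were called lower and 0 higher, with a median of -0.30, among them Urb2 (-0.62) and Rrp12 (-0.59), and 39 and 0 without that library. These lists and those below are read against all genes. With all 20 libraries 23% of all genes were called higher and 19.6% lower in E1KD SCR against the Empty vector. With Platr18 silenced 8.45% of all genes were called higher and 11% lower. The shares without E1KD replicate 1 are given above with the members. Larp1, the repressor of TOP mRNAs, had 138 and 132 CPM in E1KD SCR and 90.9 and 88.6 CPM in E1KD Platr18 KD (-0.58, SE 0.09, limma adjusted p = 0.00028). Of 77 mitochondrial ribosomal protein genes 21 were called higher and 3 lower in E1KD SCR, or 44 and 7 without E1KD replicate 1, and 0 and 9 with Platr18 silenced, or 2 and 33. RNA polymerase I genes had 7 called higher and 1 lower of 15 in E1KD SCR, or 9 and 1 without it, and 0 and 4 with Platr18 silenced, or 1 and 6. Of the 19 other TOP mRNAs 15 were called higher in E1KD and 7 higher and 4 lower without replicate 1, while in E1KD SCR 2 were higher and 1 lower, or 5 and 4 without it. The other 3 lists are read against all genes, of which 39.6% were called higher and 17.1% lower in E1KD with both libraries, and 29.9% and 27.7% without replicate 1. Of 18 genes of mTORC1 and TOP control 9 were called higher and 2 lower in E1KD, and 6 and 5 without replicate 1. With TGFβ 1 of them was called higher and 6 lower, against 21.8% and 33.6% of all genes, and with Platr18 silenced 0 and 3. Myc and its partners, 8 of them tested, had 4 called higher and 3 lower in E1KD with or without replicate 1, and 5 and 2 with TGFβ. Factors that act at the members' promoters had 5 of 10 called higher and 0 lower in E1KD, 4 and 3 without replicate 1, and 2 and 4 with TGFβ.

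Rpl5 and Rpl11 that are not in ribosomes stabilize p53 by binding Mdm2, and whether they bear on the values below was not tested. The p53 target Cdkn1a rose in E1KD, M1P, L1P and E1KD SCR against their controls. Its CPM was 55.0 and 56.8 in NMuMG, 146 and 122 in E1KD, 206 and 208 in M1P, and 277 and 280 in L1P. With TGFβ it was 92.1 and 100.4, also called higher. Of the 3 genes of this list, Trp53, Mdm2 and Cdkn1a, 2 were called higher and 0 lower in E1KD, and 1 and 0 with TGFβ, or 1 and 1 without E1KD replicate 1. The second kind had 25.6 and 27.7 CPM in the Empty vector and 43.3 and 47.0 CPM in E1KD SCR. In E1KD Platr18 KD it had 66.8 CPM in both libraries, above E1KD SCR (0.56, limma adjusted p = 0.0002). Mdm2, also a p53 target, stood at 93.9 and 93.6 CPM in NMuMG, at 113 and 91.3 CPM in E1KD, at 212 CPM in both M1P libraries and at 376 and 367 CPM in L1P. It was lower in E1KD SCR (-0.42) than in the Empty vector. In these comparisons with controls the groups overlapped for Mdm2 in E1KD and in no other. Rpl5 and Rpl11 themselves were at 65.8 and 14.7 CPM in E1KD replicate 2, against 70.7 to 73.2 CPM and 12.1 to 12.2 CPM in NMuMG.

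**Figure D5:**
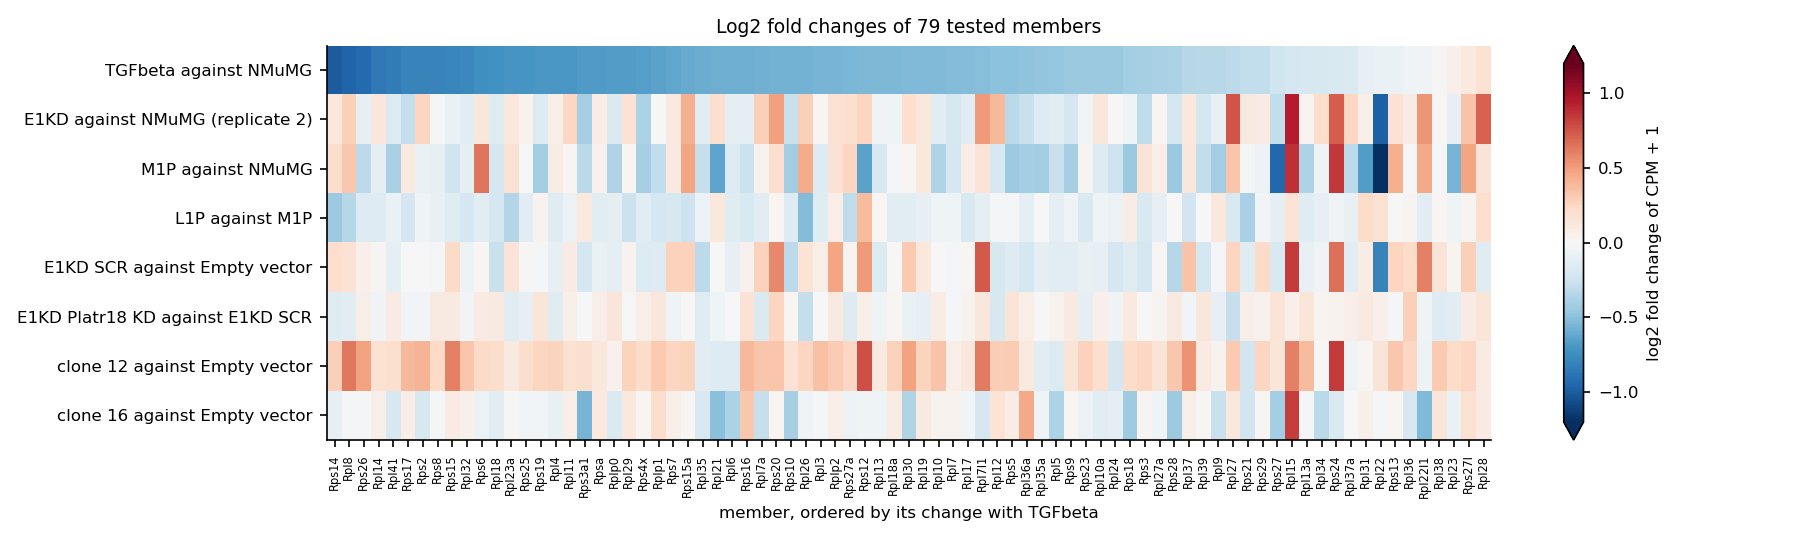
Log2 fold change of CPM + 1 of 79 of the 80 tested members (columns, ordered by their change with TGFβ) in 8 comparisons (rows), with E1KD shown by replicate 2 alone and colors from blue (lower) to red (higher). The TGFβ row is blue in nearly every column, clone 12 is mostly red, and Rpl22 is blue and Rpl15 and Rps24 are red in all rows of the silenced lines against their controls.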

How the data were processed

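RNA was measured by sequencing of total RNA (Trizol extraction) from cultured cells in 20 libraries, 2 in each of 10 conditions. Per the labels and the study's methods, the authors aligned reads to GRCm38.p6 with Bowtie2 2.2.5, counted them per M18 gene with an expectation-maximization step, and deposited CPM with 0.0001 added. The depth was recovered from the steps between low CPM values. Groups came from the labels. The members, gene lists and tests were chosen with earlier results of these data known. The 17106 genes that reached 1 CPM in 2 or more libraries were fitted on log2(CPM + 1) with limma 3.58.1 (R 4.3.3; lmFit, eBayes with trend) over all 20 libraries with 10 condition means, leaving 10 residual degrees of freedom. Genes with Benjamini-Hochberg adjusted p under 0.05 were called, with no limit on the fold. The fit was tested on simulated data. Copies of members were found with blastn 2.17.0, by comparing their coding sequences with the transcripts of other genes (at least 90% identity over at least 50% of the coding sequence) and their CPM were added to the member's (16331 genes tested).

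The genes named were the 5 called members with the largest change in each direction, the 3 members farthest from the members' median on either side, the paralogs with their parents, the stalk proteins and, of other lists, the 2 called genes with the largest change in each direction. Other genes were chosen after their values were seen, among them Rpl5, Rpl11, Rps6, Rpl22l1 in L1P, Taf1d, Myc, Mga, Larp1, Cdkn1a and Mdm2. The lists were ribosome biogenesis, RNA polymerase I, mitochondrial ribosomal proteins, other TOP mRNAs, mTORC1 and TOP control, Myc, promoter factors and p53 targets. Values of some genes that this rule names are not reported here. Alternatives changed the pseudocount, the filter, the scaling, the libraries in the fit and the replicate block. Chosen after seeing the data were the sums with copies, leaving E1KD replicate 1 out of comparisons without E1KD, M1P and L1P against NMuMG, and each clone against the Empty vector. Tables and figures were made with Python 3.11.15, pandas 2.3.3, numpy 2.4.6 and matplotlib 3.10.9.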

Additional observations from a re-analysis of the deposited data

Results flagged for a closer look

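The change with hnRNP E1 silencing was compared between the 2 kinds of library, as the log2 fold change of E1KD against NMuMG minus that of E1KD SCR against the Empty vector. With all 20 libraries 4 members had a difference past the threshold (limma with Benjamini-Hochberg adjustment): Rpl28 with 1.16 (adjusted p = 0.0016), Rpl27 with 0.963 (adjusted p = 0.0206), Rpl12 with 0.792 (adjusted p = 0.0024) and Rpl34 with 0.472 (adjusted p = 0.0353). Of all genes 15.4% were past it with a higher value in the first kind and 5.86% with a lower one. The tested members thus passed the threshold less often than genes at large.

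Without E1KD replicate 1 these 4 were again past the threshold, at 0.849 for Rpl28, 0.498 for Rpl27, 0.582 for Rpl12 and 0.258 for Rpl34 (limma adjusted p from 0.0002 to 0.0299). Rpl37a had 0.376 and Rpl10a had 0.234, and Rpl7l1 had -0.225, a smaller rise in the first kind than in the second. Rpl34 with its copies had -0.028 with all libraries and -0.36 without E1KD replicate 1, so its direction depended on the rows counted. None of the 4 was past the threshold with all libraries once copies were included, at 0.345 for Rpl28 (limma adjusted p = 0.17), 0.309 for Rpl27 (0.0935), 0.129 for Rpl12 (0.40) and the value above for Rpl34 (0.93). With copies and without E1KD replicate 1, Rpl28 had 0.060, Rpl27 had 0.135, Rpl12 had 0.066, Rpl37a had -0.14 and Rpl10a had 0.053, and none of these 5 was past the threshold (limma adjusted p from 0.20 to 0.63), whereas Rpl34 was, in the opposite direction (limma adjusted p = 0.0030). The size of the difference in these 6 members thus depended on the rows counted. For Rpl7l1 it did so less, at -0.26 with copies and without E1KD replicate 1 against the -0.225 of its own row. With all 20 libraries its own row had -0.018. The part of the library kind in these differences cannot be told apart from that of the lines.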

How the results depend on the processing

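The counts below are members called, in either direction. The shares of all genes called under these settings are not given. The counts thus show how the calls depend on the processing, and not whether members were called more often than other genes. With no filter on low values there were 25 in E1KD against NMuMG (45 as reported), 31 in M1P against E1KD (54), 1 in L1P against M1P (2) and 2 in the difference between the silencing effects (4). A fit within one kind of library gave 12 for E1KD, 9 for TGFβ (28), 16 for M1P, 0 for L1P, 41 for the clones against Empty vector (4), 61 for clone 16 against clone 12 (14), 36 for E1KD SCR (7) and 12 for Platr18 KD (0). A fit of the compared groups alone gave 1, 57, 0, 23, 36, 54, 26 and 18. Rescaling by medians of ratios gave 7 for L1P, 13 for the clones, 31 for clone 16 against clone 12, 14 for E1KD SCR, 4 for Platr18 KD and 8 for the difference, with medians of -0.36 for TGFβ and 0.074 for Platr18 KD. Equal protein-coding sums gave 61 for TGFβ, 7 for L1P, 14 for the clones, 30 for clone 16 against clone 12, 11 for E1KD SCR, 3 for Platr18 KD and 8 for the difference. Members summed with copies gave 73 for TGFβ, 4 for L1P, 13 for the clones, 40 for clone 16 against clone 12, 13 for E1KD SCR, 1 for Platr18 KD and 0 for the difference, and with E1KD replicate 1 also left out 78, 38, 47, 60, 44, 16 and 10, with 24 for M1P and a median difference of -0.065. Leaving out 1 library at a time, the counts were 21 to 79 for E1KD, 10 to 71 for TGFβ, 21 to 79 for M1P, 0 to 19 for L1P, 2 to 33 for the clones, 7 to 56 for clone 16 against clone 12, 6 to 30 for E1KD SCR, 0 to 10 for Platr18 KD and 2 to 78 for the difference. The medians were then 0.03 to 1.12 for E1KD, -0.64 to -0.41 for TGFβ, -1.25 to -0.14 for M1P, -0.11 to -0.09 for L1P, 0.06 to 0.14 for the clones, -0.32 to -0.23 for clone 16 against clone 12, -0.05 to 0.02 for E1KD SCR, 0.0042 to 0.041 for Platr18 KD and -0.0086 to 1.07 for the difference. Same-numbered libraries share only a number, and a block for that number gave 41, 28, 50, 2, 4, 13, 7, 0 and 4 members called, in the order of E1KD, TGFβ, M1P, L1P, the clones, clone 16 against clone 12, E1KD SCR, Platr18 KD and the difference, none moved by more than 1.5 times. Members that changed direction were, in E1KD, Rpl41 (-0.17 by medians of ratios, -0.19 by protein-coding sums), Rps27 (-0.30 to 0.27), Rpl7 (-0.19 to 1.15) and Rps4x (-0.38 to 1.25) over the libraries left out and, with copies as well, Rpl3 (-0.0044), Rpl10 (-0.16), Rpl39 (-0.27) and Rps4x (-0.36). With copies, Rps27l (-0.69) and Rpl23 (-0.43) did so in TGFβ. In M1P against E1KD they were Rps6 (-0.36 to 0.51) and Rps3 (-0.38 to 0.46) over the libraries left out, and Rpl22l1 (0.025), Rps27l (0.20) and Rpl3 (0.016) with copies and without replicate 1. In the difference they were Rpl34 (-0.028 with copies, -0.36 without replicate 1 as well), Rpl22 (-0.24), Rps4x (-0.21), Rps27 (-0.15) and, without E1KD replicate 2, Rpl7l1 (0.19). The cause was not tested. With 2 libraries a condition the spread is estimated over all conditions, so the calls depend on which libraries enter the fit.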
